A study of Mus musculus with 18 samples.

Results

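The long coding-sequence ac4C peaks of the mouse hippocampus were the acRIP peaks that lay in the coding sequence (CDS) of an mRNA and were longer than 200 bp. They were taken from the 6 deposited peak lists, 1 per sample, by the transcript position and the length listed for each peak. Of 24703 listed peaks, 14644 were CDS peaks and 2644 of these were long. Long peaks that overlapped by at least 1 bp were joined across samples into 1095 regions on 913 mRNAs, out of 9374 regions formed by all listed peaks.

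The samples were hippocampi of 3-month-old mice, 3 WT and 3 5×FAD animals, each with an acRIP, an input and an IgG-IP library, and only the acRIP lists were analysed. 5×FAD mice carry mutant human transgenes of familial Alzheimer disease, APP among them, under the mouse Thy1 promoter, which is active mainly in neurons, and the WT animals carry none. Each library held the RNA of whole tissue, so fewer cells of a type and less RNA per cell cannot be told apart. The fold enrichment (FE) of a peak was the acRIP signal after subtraction of the IgG signal, divided by the input signal. Each list held 3734 to 4558 peaks. No read counts accompanied them, so the depth is unknown, and a missing peak says only that none was listed. The false discovery rate (FDR) beside each peak was 20.2% or more in every list. Peaks in at least 2 samples were listed for 5 of 7 astrocyte markers in WT and 5 in 5×FAD, for 4 of 7 oligodendrocyte markers in WT and 4 in 5×FAD, and for 2 of 7 excitatory neuron markers in WT and 3 of 7 in 5×FAD. Interneuron markers had a peak in 4 of 8 in WT and in 1 of 8 in 5×FAD, and their part in the differences between genotypes was not tested.

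N4-acetylcytidine (ac4C) is a cytidine carrying an acetyl group, which the acetyltransferase NAT10 places on tRNA, rRNA and mRNA. In coding sequences it has been linked to mRNA stability and to decoding by the ribosome, in part through its codon position. Cytidines each followed by a pair of other bases (CNN repeats) have been described around acetylated sites of mRNA. Reads of an antibody pull-down mark a fragment and not a base, so a long peak is a stretch of exon that may hold several modified cytidines or none at a given position.

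The stretches on which the results turn were read from GRCm38 on the strand of the gene, 5′ to 3′, over the bases that all long peaks of the region shared. Capitals mark the longest uninterrupted run of CNN triplets. Klhl42, chr6:147092095-147092305 (plus strand), and Cry1, chr10:85146344-85146552 (minus strand), had the highest FE of the regions with peaks in all 3 WT samples and no listed peak in 5×FAD. Ror1, chr4:100441671-100441901 (plus strand), and Epcam, chr17:87646137-87646340 (plus strand), were their counterparts in 5×FAD. Kif18b, chr11:102908437-102908638 (minus strand), and Fam169a, chr13:97122692-97122892 (plus strand), had a peak in all 6 samples and FE far higher in WT, while Birc6, chr17:74589595-74589796 (plus strand), with a peak in 5 samples, was far higher in 5×FAD. Eno2, chr6:124766105-124766327 (minus strand), had a peak in all 6 samples at a close FE, over 200 bp only in WT 1, WT 3 and 5×FAD 3.
Klhl42: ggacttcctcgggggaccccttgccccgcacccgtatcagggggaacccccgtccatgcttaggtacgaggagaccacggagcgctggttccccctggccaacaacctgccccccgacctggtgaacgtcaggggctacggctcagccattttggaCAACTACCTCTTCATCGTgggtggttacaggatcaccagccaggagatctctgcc
Cry1: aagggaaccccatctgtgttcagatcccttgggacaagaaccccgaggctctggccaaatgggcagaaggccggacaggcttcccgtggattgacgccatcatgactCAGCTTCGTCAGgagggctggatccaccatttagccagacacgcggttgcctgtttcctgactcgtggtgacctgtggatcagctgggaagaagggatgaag
Ror1: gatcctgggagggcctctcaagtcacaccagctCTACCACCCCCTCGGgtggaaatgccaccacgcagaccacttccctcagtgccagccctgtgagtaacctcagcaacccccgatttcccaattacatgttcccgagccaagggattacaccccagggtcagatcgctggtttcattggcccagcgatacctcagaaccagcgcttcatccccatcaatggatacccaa
Epcam: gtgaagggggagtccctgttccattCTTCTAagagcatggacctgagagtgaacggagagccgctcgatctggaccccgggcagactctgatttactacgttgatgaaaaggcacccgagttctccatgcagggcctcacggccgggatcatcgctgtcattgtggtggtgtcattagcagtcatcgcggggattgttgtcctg
Kif18b: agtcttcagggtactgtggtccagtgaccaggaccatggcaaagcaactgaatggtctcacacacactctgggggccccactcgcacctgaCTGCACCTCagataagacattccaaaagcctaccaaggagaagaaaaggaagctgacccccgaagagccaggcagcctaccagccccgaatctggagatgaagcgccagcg
Fam169a: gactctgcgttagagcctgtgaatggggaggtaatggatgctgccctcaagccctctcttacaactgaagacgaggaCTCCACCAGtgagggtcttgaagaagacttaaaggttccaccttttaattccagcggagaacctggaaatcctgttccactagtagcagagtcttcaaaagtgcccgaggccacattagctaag
Birc6: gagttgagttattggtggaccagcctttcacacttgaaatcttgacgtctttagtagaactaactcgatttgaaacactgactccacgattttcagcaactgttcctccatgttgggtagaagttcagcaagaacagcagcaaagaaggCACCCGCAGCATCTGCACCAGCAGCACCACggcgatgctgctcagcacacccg
Eno2: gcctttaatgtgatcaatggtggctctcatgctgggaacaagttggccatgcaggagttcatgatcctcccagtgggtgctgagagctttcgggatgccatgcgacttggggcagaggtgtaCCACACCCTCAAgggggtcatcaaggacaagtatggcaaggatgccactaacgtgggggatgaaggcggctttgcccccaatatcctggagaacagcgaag
The C share of these stretches ran from 22.9% in Eno2 to 36.8% in Ror1. The longest run was 10 triplets in Birc6, where the cytidine of each triplet was the first base of its codon. The run was 6 triplets in Klhl42, with the cytidine at the third codon position, and 2 triplets in Epcam.

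Long CDS peaks were somewhat fewer in 5×FAD on average, with overlap between the genotypes. There were 426, 487 and 481 in the WT samples and 432, 411 and 407 in the 5×FAD samples, with mean values of 465 ± 33.6 and 417 ± 13.4 (SD, n = 3). The difference had an exact two-sided permutation p of 0.2, where 0.1 is the smallest that 3 against 3 samples can give. Without WT 1 the difference in means was -67.3. It was -47.3 with FE of at least 5, -41.7 without peaks of FDR 100%, -150 above 150 bp and -28.7 above 300 bp. Each of these had an exact permutation p of 0.1. Long CDS peaks made up 10.6% ± 0.279 of the listed peaks in WT and 10.8% ± 0.303 in 5×FAD (p = 0.3, exact permutation test). As a share of the CDS peaks alone they were 17.6% ± 0.454 in WT and 18.6% ± 0.491 in 5×FAD. All 3 5×FAD samples lay above all 3 WT samples (exact permutation p = 0.1), but the direction turned when the length limit was set at 150 bp or 300 bp. The mRNAs with a long CDS peak numbered 388 to 441 per WT sample and 373 to 396 per 5×FAD sample.

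**Figure D1:**
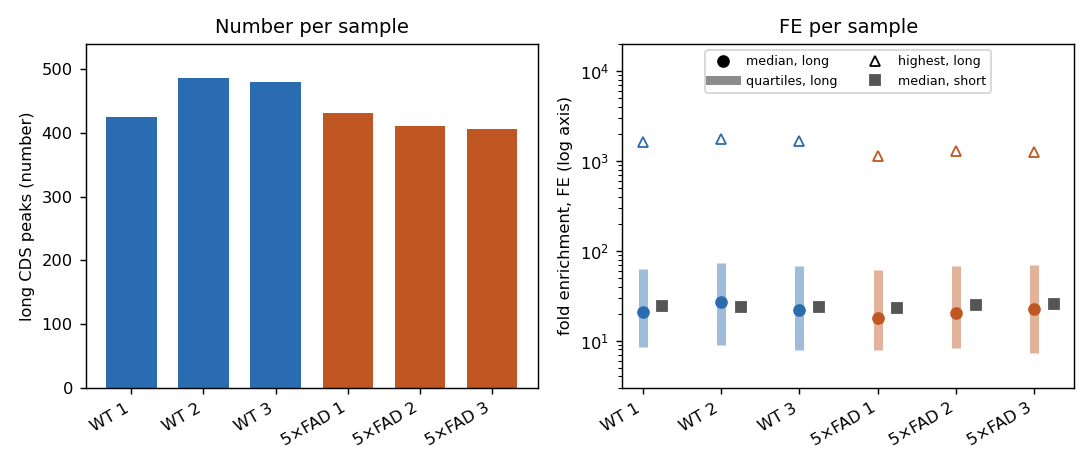
Left, the number of long CDS peaks in each of the 3 WT (blue) and 3 5×FAD (orange) samples. Right, their FE on a log axis as median (circle), quartiles (bar) and highest value (triangle), with the median of the CDS peaks of 200 bp or less (grey square). Medians of both genotypes overlap between 17.7 and 26.6, and the highest values do not.

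The enrichment of long peaks varied widely within each sample. Median FE values in the WT samples, 21, 26.6 and 21.8, were close to those of the 5×FAD samples, 17.7, 20.5 and 22.8 (mean 23.1 ± 3.04 against 20.3 ± 2.52, n = 3, exact permutation p = 0.4), and the genotypes overlapped. Upper quartiles were also close, 68.2 ± 5.41 in WT and 66.4 ± 4.11 in 5×FAD, with overlap (exact permutation p = 0.8). The highest FE was 1621, 1771 and 1685 in the WT samples, against 1142, 1306 and 1271 in 5×FAD, without overlap (exact permutation p = 0.1). All 3 of the WT values came from the same region, a peak of 202 bp on Kif18b. The share of long peaks with FE over 100 was 19% ± 0.447 in WT and 16.8% ± 1.46 in 5×FAD, again without overlap (exact permutation p = 0.1). The nearest samples were WT 3 with 18.5% and 5×FAD 3 with 18.2%. For CDS peaks of 200 bp or less the order was the other way, with highest FE of 2150 to 2345 in WT and 2941 to 3634 in 5×FAD. In all, 24 measures were compared between the genotypes in this way, and the lowest adjusted p was 0.3 (Benjamini-Hochberg).

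Long peaks did not stand clearly apart from short ones in enrichment. The median log2 FE of long minus short CDS peaks was -0.17 ± 0.19 (SD, n = 6), below 0 in 5 of 6 samples and above 0 in WT 2 (exact paired permutation test by sign flips, p = 0.125, smallest possible 0.031). Within the long peaks, FE depended on length. Peaks of over 200 and up to 300 bp had median FE of 26.6 to 34.4 per sample, against 9.10 to 12.9 for peaks of over 300 and up to 500 bp. Peaks of over 500 and up to 1000 bp had medians of 16.1 to 22.7. Most long peaks, 64%, fell in the shortest of these classes. At 300 bp in place of 200 bp as the limit, long peaks were lower than the others by 1.00 on the log2 scale (exact p = 0.031, below 0 in every sample).

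Of the 2644 long peaks, 2642 lay within 1 annotated exon (GENCODE vM21), which the length rule therefore limited to exons of over 200 bp. The median length of that exon was 628 bp. A total of 1067 long peaks were in exons of over 1000 bp. A whole exon was covered by 553 long peaks, 1 end met an exon end in a further 887, and in 1188 neither did. Exons with a long peak were longer in WT, with a median of 673 ± 21.9 bp, than in 5×FAD, with 578 ± 26.6 bp (no overlap, exact permutation p = 0.1). With the coding sequence divided into 3 equal parts, 45.6% of long peaks had their centre in the middle part, 27.5% in the first and 26.9% in the last, against 38.3%, 31.4% and 30.2% of short CDS peaks. Peaks listed at a start or stop codon were outside the rule. Near either end of the coding sequence a longer peak reaches such a codon more readily, and the part of this in the contrast was not tested.

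Long CDS peaks were richer in cytidine than short ones. Cytidine made up a mean of 27.9%, 28.3% and 27.9% of their bases in the WT samples, and 27.5%, 27.6% and 27.2% in the 5×FAD samples, while that of short CDS peaks was 25.2% to 25.6% in all 6 samples. The difference between long and short peaks was 2.33 ± 0.298 percentage points (n = 6, above 0 in 6 of 6 samples, exact p = 0.031, 0.0344 adjusted over 11 such comparisons). Bases come from the genome, and samples of a genotype listed much the same stretches, with a mean of 0.598 of the covered bases shared. The 6 values are therefore not independent. Their SD and p describe how the lists repeat, here and in the other comparisons of bases and codon positions. A, G and T were each lower in long peaks in 6 of 6 samples, A most, by 1.37 ± 0.236 points. The excess of cytidine was uneven over the codon. It was 1.89 ± 0.269 points at the first and 5.11 ± 0.543 points at the second codon position, while at the third, the wobble position, long peaks were lower by 0.743 ± 0.378 points (each in 6 of 6 samples). Where at least 100 other coding bases of the same exon were left, the peak exceeded them by 0.598 ± 0.227 points (6 of 6 samples, exact p = 0.031). The 3 WT samples had a higher C share in long peaks than the 3 5×FAD samples, 28.1% ± 0.212 against 27.5% ± 0.221 (no overlap, exact permutation p = 0.1). Bases were read on the strand of the named gene, and 890 of the long peaks also overlapped an annotated exon of the opposite strand.

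**Figure D2:**
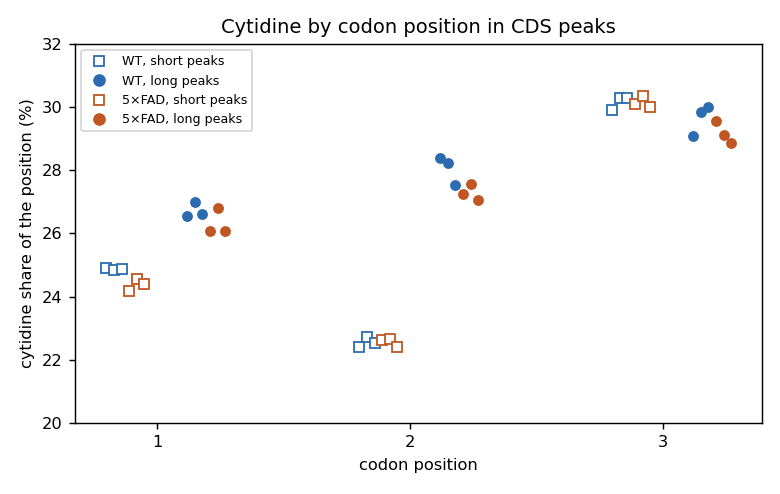
Share of cytidine at each codon position in long (filled circles) and short (open squares) CDS peaks, with 1 point per WT (blue) or 5×FAD (orange) sample. At the second position the long peaks hold 27.1% to 28.4% cytidine and the short peaks 22.4% to 22.7%, whereas at the third position the long peaks are slightly lower.

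The CNN repeat was searched as CNNCNNCNNCNNCNN in the central 201 bases of the longest peak of each region. It was found on the coding strand in 451 of 1090 long CDS regions, or 41.4%, and on the opposite strand in 34.7%. Over all listed peaks of more than 200 bp, whatever their position in the transcript, the coding strand held it in 36.1% of 3932 regions of the same window. By position this was 55.8% at start codons, 47.9% in 5′ UTRs, 35.6% at stop codons and 21.7% in 3′ UTRs, so the CDS share lay between them. The share was 37.6% in the regions called in WT alone and 41.2% in those called in 5×FAD alone. The first match had its cytidines at the third codon position in 44.1% of the 451 regions, at the second in 33.5% and at the first in 22.4%. The search describes letters in a window and is no evidence of acetylation.

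Most long regions belonged to 1 genotype. A region counted as called where 2 or more of the 3 mice of a genotype had a long CDS peak. By this rule 420 regions were called in WT alone, 364 in 5×FAD alone and 46 in both, and 265 in neither. Of the 830 called regions these were 50.6%, 43.9% and 5.54%, against 50.8%, 42.9% and 6.26% of the 7941 regions called when all listed peaks were used, so the long CDS peaks divided between the genotypes much as all peaks did. Of the regions called in WT, 84.1% had no listed peak of any kind in any 5×FAD sample, and of those called in 5×FAD, 84.9% had none in any WT sample. The peaks of a genotype were alike in position. The bases covered by 2 samples as a share of those covered by either were 0.598 ± 0.0242 for the 6 pairs within a genotype and 0.0683 ± 0.00608 for the 9 pairs between genotypes (exact permutation over the 10 divisions of the samples, p = 0.1). Both ends of the peak were identical in all 3 WT samples for 157 regions and in all 3 5×FAD samples for 119, but in all 6 samples for 7. Wdr70, a WD-repeat protein, had such identical WT peaks over the whole of exon 5 with FE of 806, 859 and 851, beside 6.48 in 5×FAD 3 alone.

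Among regions with a long peak in all 3 samples of a genotype and none of any kind in the other, 252 were of WT and 239 of 5×FAD. The WT region with the highest mean FE was in exon 1 of Klhl42, which encodes a substrate adaptor of cullin ubiquitin ligases. Its FE was 595, 660 and 632 in the WT samples. Cry1, a repressor of the circadian clock, followed with 566, 626 and 492 in exon 7. Tenm4, a teneurin adhesion protein, had 412, 384 and 533 in exon 29. Fam53b (mean 380), Nynrin (361), Ptchd2 (350), the kinase-dead ephrin receptor Ephb6 (283) and the heterochromatin protein Bahd1 (273) completed the 8 highest. None of these regions had a listed peak in a 5×FAD sample. The SD over the 3 samples was 15.5 to 92.2 in these 8.

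In 5×FAD the highest such region was in exon 9 of Ror1, a receptor tyrosine kinase-like receptor for Wnt ligands. Its FE was 1142, 936 and 801. Epcam, an adhesion molecule best known from epithelia, had 833, 1004 and 890 over the whole of exon 8. Arhgap29, a GTPase-activating protein, had 822, 581 and 556. Orai3, a store-operated calcium channel subunit, had 430, 835 and 494, the widest spread of the 8 (SD 217). Ggta1, a galactosyltransferase (mean 544), 1700021K19Rik (542), the metabotropic glutamate receptor Grm4 (447) and the oxysterol receptor Nr1h3 (393) followed. None had a listed peak in a WT sample. Because these regions were picked for having no peak in the other genotype, their difference is a description and no test was made.

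**Figure D3:**
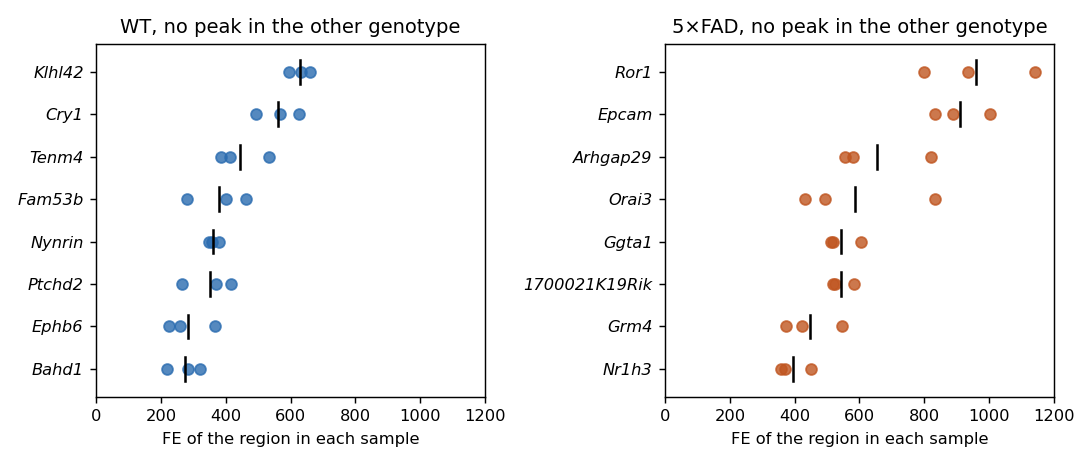
FE in each sample (points) and its mean (bar) for the 8 regions per genotype with the highest mean FE among those with a long CDS peak in all 3 samples and no listed peak in the other genotype. The WT regions (left, blue) range from 217 to 660 and the 5×FAD regions (right, orange) from 359 to 1142 over the single samples.

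A listed peak of any kind in at least 2 samples of each genotype was found in 58 long CDS regions, and these were compared by limma on log2(FE + 1), fitted over the 497 regions of all transcript positions that met the same condition, with FE set to 0 where a sample had none. With thresholds of 0.05 for the adjusted p and 2 for the fold change, 18 of the 58 (31%) were higher in WT and 9 (15.5%) higher in 5×FAD, against 40.0% and 15.9% of all 497. Without peaks of FDR 100%, 20 of the 58 were left to fit, of which 1 was higher in WT and 2 in 5×FAD, so most of the calls could be made only with such peaks included. The genotypes did not overlap in any of the 27 calls of the main fit, and that rests on the same values as the calls. The median log2 fold change (5×FAD over WT) was -0.71 in the 58 and -1.70 in the 497. Centring the samples on the median of their peaks moved the latter by 0.13 and left the calls at 17 and 9. Without peaks of FDR 100%, however, the medians were 0.34 in the long CDS regions and 0.021 in all 191 regions left. Without 5×FAD 1 they were 0.16 and -1.02, and without any other 1 sample both stayed below 0. The median fold was 74.8 for the calls in WT and 5.13 for those in 5×FAD.

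Many of the WT calls joined an extreme FE in WT with a low one in 5×FAD. In exon 13 of Kif18b, a mitotic kinesin, FE was 1621, 1771 and 1685 in WT, the highest of all long CDS regions, and 14.2, 14.0 and 12 in 5×FAD. The 3 WT peaks had identical ends, and those of 5×FAD were 200 bp long. The log2 fold change was -6.88 with a standard error (SE) of 0.10 (limma, adjusted p = 1.22e-06). In exon 3 of Mtf1, a transcription factor of the metal response, WT had 1278, 1347 and 1267 and 5×FAD 9.10, 17.0 and 9.03 (log2 fold change -6.73, SE 0.26, adjusted p = 1.14e-05, limma). Prdm15, a zinc finger protein, had 1365, 1480 and 1351 in WT and 7.59 and 10.5 in 2 of the 5×FAD samples, and the third, without a peak, entered the fit at FE 0 (log2 fold change -8.24, SE 0.99, adjusted p = 0.00107, limma). The other 5 of the 8 largest had the same form. The tyrosine phosphatase Ptpn13 had 778, 880 and 834 against 6.78, 8.73 and 5.32, and the carboxypeptidase Cpq had 690, 795 and 705 against 7, 8.96 and 6.71. Sema3g, a secreted semaphorin, had 638, 720 and 671 in WT and 5.74 and 8.80 in the 2 5×FAD samples with a peak. Fam169a had 579, 489 and 569 against 3.04, 3.16 and 3.39. The protocadherin Pcdhgb8, of a gene cluster with similar exons between which reads may be split, had 595, 785 and 589 against 3.01, 3.32 and 7.02. These 8 were picked among calls without overlap between the genotypes.

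The calls in 5×FAD were of smaller fold, apart from Birc6, Sepn1 and Pcdhga9. In Birc6, a large ubiquitin-conjugating enzyme that blocks apoptosis, FE was 3.08 and 2.54 in the 2 WT samples with a peak and 213, 212 and 248 in 5×FAD (log2 fold change 6.53, SE 0.60, adjusted p = 0.000432, limma, WT 2 at FE 0), and only 5×FAD 2 had a peak over 200 bp there. Sepn1, a selenoprotein of the endoplasmic reticulum, had 51.2 and 36.8 in 2 WT samples against 907, 678 and 567 (log2 fold change 5.81, SE 1.64, adjusted p = 0.0284, limma, WT 1 at FE 0). That call was lost without any 1 of the 5×FAD samples, with adjusted p of 0.0639 to 0.0720, and without peaks of FDR 100%, at 0.0572. The protocadherin Pcdhga9 had 9.21 and 11.7 in 2 WT samples against 195, 315 and 263. The postsynaptic scaffold Shank1 had 3.03 and 2.97 in 2 WT samples against 23.2, 27.3 and 26.9, with WT 3 at FE 0, and its call was lost at a pseudocount of 0.1 (adjusted p = 0.0541, limma). The kinase Wnk1, a regulator of cation-chloride transport, had 5.10, 4.68 and 6.48 against 35.5, 36.3 and 24.7, and the proteasome shuttle protein Ubqln2 had 5.69, 6.20 and 6.11 against 29.8, 22.7 and 21.9. These 6 regions were likewise picked among calls without overlap between the genotypes.

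**Figure D4:**
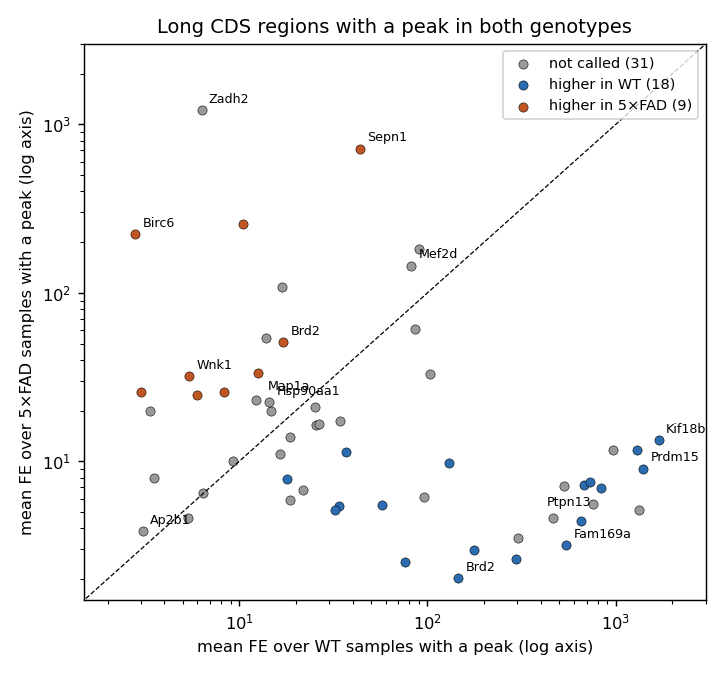
Mean FE in WT and in 5×FAD, both on log axes, of the 58 long CDS regions with a listed peak in at least 2 samples of each genotype, averaged over the samples with a peak. Blue points (18) were higher in WT and orange points (9) higher in 5×FAD by limma, grey points (31) were not called, and the dashed line marks equal FE. The 8 blue points with the largest fold changes lie at mean FE of 546 to 1692 in WT and 3.20 to 13.4 in 5×FAD.

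The 31 regions without a call were of several kinds. In 10 of them every sample had a peak. Eno2, neuron-specific enolase, had 9.30, 8.76 and 9.91 in WT and 7.47, 11.4 and 11.4 in 5×FAD, with a 95% interval of the log2 fold change of -0.62 to 0.78. Its peaks in WT 2, 5×FAD 1 and 5×FAD 2 were only 82 bp long. Ap2b1, a subunit of the clathrin adaptor AP-2, had 3.6, 3.31 and 2.31 against 3.19, 4.11 and 4.30. Mef2d, an activity-dependent transcription factor of neurons, had 77.8, 92.0 and 76.9 in WT and 114, 150 and 171 in 5×FAD, without overlap, and its fold change of 1.74 (adjusted p = 0.0163, limma) was under the required 2. The chaperone Hsp90aa1 had 14.3, 14.4 and 14.5 against 21.2, 22.0 and 24.0, also without overlap (adjusted p = 0.0516, limma). Camta2, a calmodulin-binding transcription activator, had 36.0, 38.7 and 28.1 against 17.3, 18.2 and 16.8 (1.9-fold lower in 5×FAD, adjusted p = 0.0154, limma). The last 4 of these named genes were among the 7 with identical peak ends in all 6 samples, together with Cpq, Fam169a and Ptpn13. In others a sample had no peak. Zadh2 had 4.50, 9.09 and 5.34 in WT and 1136 and 1306 in 5×FAD 1 and 2, but no peak in 5×FAD 3, and was called (log2 fold change 7.43, adjusted p = 8.6e-05, limma) only without that sample. When samples were left out, Nhsl1, Pcdhgb5, Pdzd2 and Arhgef5 were called as higher in WT only without WT 1, Camsap3 and Fastkd3 only without WT 2, and Helz, Cpsf6 and Camta2 only without WT 3. Hnrnpa2b1 was called as higher in WT without 5×FAD 1, and Scaf1 and Smarca2 as higher in 5×FAD without WT 3 and without 5×FAD 3.

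The longest regions lay on the microtubule-associated protein Map1a, which stabilises dendritic microtubules. Of 31 long peaks over 1000 bp, 15 were on Map1a, and all of these were in its exon 5 of 8104 bp. The first region (chr2:121299269-121301576, 2308 bp) had FE of 12.3, 13.8 and 11.9 in WT, against 25.9, 35.8 and 38.0 in 5×FAD (log2 fold change 1.31, SE 0.25, adjusted p = 0.00632, limma). At a pseudocount of 10 its log2 fold change was 0.92, under the threshold. There the 5×FAD peaks began at the first base of the exon, while the WT peaks began 612 to 730 bases further on. The second (chr2:121301992-121305765, 3774 bp) had 8.45, 8.52 and 7.80 in WT and 14.4, 28.2 and 34.3 in 5×FAD, where 2 samples held several peaks whose FE were summed (log2 fold change 1.44, SE 0.38, adjusted p = 0.0236, limma). That call was lost without 5×FAD 2 (adjusted p = 0.0571) and when the highest FE replaced the sum (log2 fold change 0.96). Another region at the 3′ end of the exon (1187 bp) had 16.9, 17.5 and 18 in WT and no peak in 5×FAD. The other 3 of the 5 longest were Hivep2 (1904 bp), Ylpm1 (1427 bp) and Fmn2 (1313 bp), all called in WT alone. FE was 12.2, 14.6 and 11.9 in Hivep2, 47.8, 42.0 and 31 in Ylpm1 and 31.6, 55.0 and 52.9 in Fmn2, a formin that nucleates actin, with a single 5×FAD peak of 6.69 in Hivep2 and of 3.93 in Fmn2.

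Some mRNAs had different stretches marked in each genotype. Called long regions were found on 425 mRNAs in WT and 381 in 5×FAD, and 85 mRNAs had them in both. In 44 of the 85 a region was called in both genotypes, and in the other 41, of 721 mRNAs with a called region, the WT and 5×FAD regions were separate. In 9 of these 41 they lay in the same exon, a median of 798 bp apart. Map2, a microtubule-associated protein of dendrites, was one. In its exon 7 of 3741 bp, 5×FAD peaks with FE of 5.72, 8.33 and 7.01 began 55 bases from the 5′ end, and WT peaks with FE of 5.86, 5.2 and 4.31 began at 2941. A further WT region of the exon, with peaks from 1892 or 1944, had FE of 3.64 in WT 1 and 5.63 in WT 3. Exon 12 of Map2 held a further WT region (8.49, 8.39 and 6.01). In Rsf1, a chromatin remodelling subunit, a 5×FAD region (9.07, 11.9 and 12.5) and a WT region (9.03, 8.63 and 5.10) were 323 bp apart in exon 6. In Kpna2, an importin, exon 7 was marked in WT (40.3, 49.9 and 45.4) and exon 8 in 5×FAD (28.8, 45.5 and 36.0). None of these regions had a listed peak in the other genotype.

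**Figure D5:**
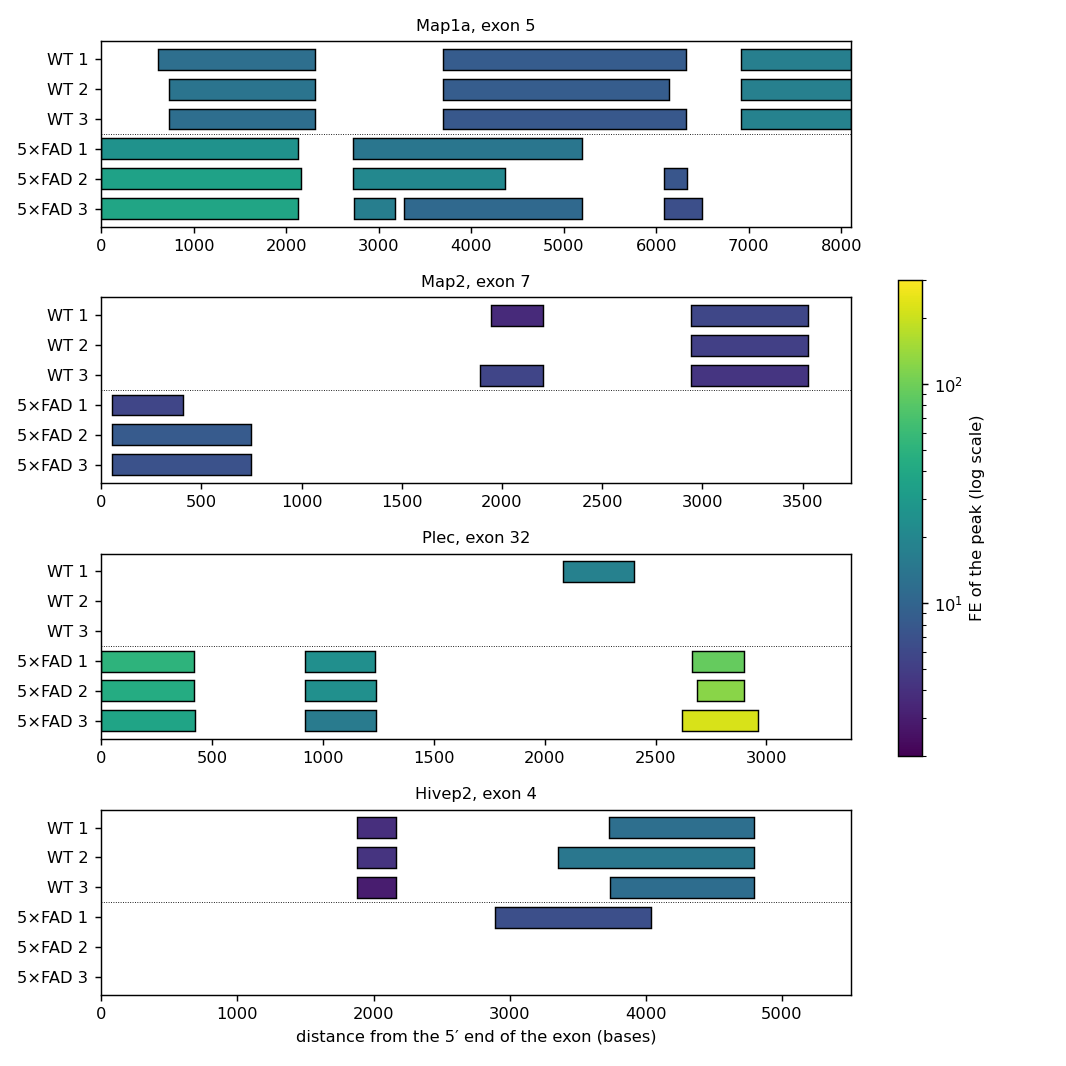
Listed CDS peaks (bars) in single exons of Map1a, Map2, Plec and Hivep2, by distance in bases from the 5′ end of the exon, with 1 row per sample (WT above the dotted line, 5×FAD below), coloured by FE on a log scale, where a black outline marks a peak over 200 bp. Within a genotype the peaks lie at similar positions, with some differing ends, and in Map2 and Plec no WT peak overlaps a 5×FAD peak.

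Brd2, a bromodomain reader of acetylated histones, held regions with opposite directions 201 bp apart on the genome. That in exon 7 had FE of 135, 50.4 and 252 in WT, against 1.58, 2.40 and 2.08 in 5×FAD (log2 fold change -5.33, SE 0.63, adjusted p = 0.00104, limma). That in exon 6 had 19.9, 16.0 and 15.4 in WT and 60.7, 51.0 and 41.7 in 5×FAD (log2 fold change 1.52, SE 0.24, adjusted p = 0.00297, limma). Neither region's genotypes overlapped.

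The mRNAs with most long regions, counting those found in 1 sample, were Tenm4 with 7, Plec and Srrm2 with 5 each, and Brwd1 and Dync1h1 with 4 each, as many as 7 further mRNAs. On Tenm4, 3 regions were called in WT and 2 in 5×FAD. The WT regions had mean FE of 443 in exon 29, 97.6 in exon 33 and 5.16 in exon 31, and the 5×FAD regions 19.6 in exon 21 and 6.06 in exon 4. Plec, which encodes the cytoskeletal linker plectin, had 3 called regions in exon 32, all in 5×FAD. Their FE was 91.3, 123.2 and 222, 50.7, 43.6 and 37.5, and 23.7, 24.3 and 15.7. The single WT peak of that exon was in WT 1 (17.9). Dync1h1, the heavy chain of cytoplasmic dynein, had 3 regions in WT, the strongest over the whole of exon 36 (59.6, 75.6 and 63.0), and 1 in 5×FAD over the whole of exon 32 (24.6 and 26.4 in 2 samples, and 4.39 in WT 2). Brwd1 had 3 in WT and 1 in 5×FAD. Its WT regions at chr16:96003860-96004082 and chr16:96008720-96008942 had the same length (223 bp) and coding position (79.6%). Both were found in WT 2 and WT 3, with FE of 3.45 and 2.71 and of 3.10 and 2.35. Whether they are 1 stretch placed at separate sites was not tested. Srrm2, a splicing factor, had 2 in WT with FE of 6.86 to 8.96, where 5×FAD 2 also had peaks of 12.7 and 10.7.

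Grouped by function, the called long regions of each gene list were set beside 50.6% in WT alone and 43.9% in 5×FAD alone over all called regions. Several of the larger lists lay near these shares, such as ion channels (52.2% and 47.8%) and chromatin regulators (52.2% and 43.5%). Other lists held few regions, and no split was tested. Microtubule-associated, spectrin and intermediate filament genes had 35 regions on 20 mRNAs, 19 in WT alone, 12 in 5×FAD alone and 4 in both, with median FE of 16.5 in WT and 11.4 in 5×FAD against 23.2 and 21.5 over all called regions. Macf1, a microtubule-actin cross-linker, had 138, 149 and 135 in WT in exon 56 and 22.3, 33.7 and 22.8 in 5×FAD in exon 36. Motor proteins had 7 regions in WT alone and 6 in 5×FAD alone, among them Kif3b, a kinesin-2 motor, with 128, 85.8 and 76.4 in 5×FAD.

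Synaptic genes had regions in both genotypes. Of 14 regions on 10 mRNAs of the presynaptic list, 9 were called in 5×FAD alone, 4 in WT alone and 1 in both, and of 13 regions of the glutamate receptor and postsynaptic list 7, 5 and 1, where 4 of the 7 were on Grin2b. No test was made of these splits. Syn1, the vesicle protein synapsin, had 79.0, 73.3 and 67.7 in 5×FAD over the whole of exon 12, and 69.9 in WT 3 alone. Pclo, the active zone scaffold piccolo, had 48.7, 72.0 and 58.6 in WT in exon 6 and 13.1, 18.8 and 15.1 in 5×FAD in exon 5. Gria3, an AMPA receptor subunit, had 92.2, 75.5 and 70.6 in 5×FAD, and Grik3, a kainate receptor subunit, 102, 69.6 and 39.1 in WT. Grm5, a metabotropic receptor, had 53.3, 79.0 and 73.7 in 5×FAD in exon 3. Grin2b, an NMDA receptor subunit, had 4 long regions, all called in 5×FAD. The strongest, in exon 4, had 33.8, 35.9 and 33.2 and no peak in WT. In that of exon 10, however, the peaks of WT reached 35.3, 29.6 and 31.8 against 3.88, 3.74 and 7.89 in 5×FAD (log2 fold change -2.49, SE 0.34, adjusted p = 0.00178, limma), and only the peak of WT 2 was longer than 200 bp.

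Ion channels had 12 regions in WT alone and 11 in 5×FAD alone. The T-type calcium channel Cacna1h had 235, 324 and 237 in 5×FAD, and the scramblase Ano6 had 199, 232 and 236 in WT over the whole of exon 14. The solute carrier list had 6 regions in WT alone, led by Slc45a4 with a mean of 274 in WT 2 and WT 3. Of the 6, 2 were on Slc45a4 and another was on Slc9a3r2, a regulator of a sodium/hydrogen exchanger. The list had 1 region in 5×FAD alone, on Slc8a2, a sodium-calcium exchanger (12.9 and 12.1 in 2 samples). Kinases and phosphatases had 21 in WT alone, 9 in 5×FAD alone and 2 in both. Mtor, the kinase of the TOR pathway, had 160 and 161 in WT 2 and WT 3 and no other peak. GABA, amine, peptide and orphan receptors had 6 in WT alone, led by the somatostatin receptor Sstr1 with a mean FE of 381 in WT 2 and WT 3 and no other peak, and 3 in 5×FAD alone. Protocadherins and leucine-rich-repeat adhesion proteins had 12, 11 and 4 in both.

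Of the nuclear lists, chromatin regulators had 24 regions in WT alone, 20 in 5×FAD alone and 2 in both, and zinc finger proteins 17, 19 and 2. Arid4a, a chromatin-binding protein, was marked over exon 22 in WT (242 and 244 in 2 samples) and in exon 20 in 5×FAD (39.9, 60.1 and 52.0). Splicing and RNA-binding proteins had 11 in each and 2 in both. RNA modification genes had regions in 5×FAD alone, 3 in all. They were the adenosine deaminases Adar (10.6 and 24.0 in 2 samples) and Adarb1 (15.3, 12.5 and 15.1) and Zc3h13 of the m6A writer complex (16.2 and 16.7 in 2 samples). No long CDS region was found on Nat10 itself. Ubiquitin genes had 13, 14 and 1, small GTPase regulators 12, 10 and 2, and extracellular matrix genes 3 in WT alone and 1 in both, Bcan. Translation factors, ribosomal proteins and chaperones had 4, 8 and 1. Mars2, the mitochondrial methionyl-tRNA synthetase, had 619, 774 and 652 in 5×FAD and 5.50 in WT 3 alone.

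Of 17 Alzheimer disease risk and amyloid processing genes with any listed peak, 2 had a called long region, against 721 of 4922 over all genes. The receptor Lrp1 was marked over exon 14 in WT (16.9, 16.4 and 15.6) and the chaperone Clu over exon 7 in 5×FAD (5.97, 8.65 and 7.15). App had no long CDS region. Dnajc6, a clathrin-uncoating cofactor, had a region in exon 16 in 5×FAD 1 and 5×FAD 3 (13.5 and 9.84) and none in WT. That region is only a part of the mRNA, so it does not give the direction of the mRNA as a whole. For the whole mRNA the paper reports the opposite direction, with reduced acetylation in the transgenic mice. Thy1, a surface glycoprotein of neurons, had a region over the whole of exon 3 in WT (16.6, 24.2 and 16.6), and Grin1, an NMDA receptor subunit, had none. Of the cell type markers, Gja1, the astrocytic connexin, was marked in WT (57.6, 69.3 and 60.1) and Pecam1, of endothelial cells, in 5×FAD (288, 332 and 287), each without a peak in the other genotype. No called long region was found on markers of excitatory neurons, interneurons, oligodendrocytes, their precursors, microglia or choroid plexus. In that order, only 3, 5, 6, 1, 2 and 1 of these markers had any listed peak. Beside 721 of 4922 over all genes, lists this small cannot show a lack of long regions. Activity-induced genes, 19 with any listed peak, had none either.

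The confidence the caller gave to long peaks was mixed. An FDR of 100% was listed for 23.2% ± 0.687 of long peaks in WT and 24.4% ± 0.971 in 5×FAD, and their median FE was 4.62 to 5.43 per sample. That share was 1.36 ± 1.11 points above the share among short CDS peaks (6 of 6 samples, exact p = 0.031). Just inside the length limit, Pikfyve, a phosphoinositide kinase of endosomes, had a longest peak of 201 bp with FE of 219, 179 and 134 in WT, against 2.5 and 3.44 in 5×FAD 1 and 3, and Unc80, of a sodium leak channel complex, one of 201 bp with 131 and 160 in 5×FAD 1 and 3. Just outside it, at 200 bp, Agap1 had 18.3, 22.3 and 15.1 in 5×FAD and Phlpp1 6.87, 7.49 and 9.87 in WT.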

How the data were processed

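The members, the gene lists and the tests were chosen with earlier results of these data known. Per the methods, RNA was fragmented to about 200 nt and pulled down with anti-ac4C or IgG, reads were trimmed (cutadapt 1.9.3) and aligned to mm10 (HISAT2 2.04), and peaks were called per sample against input with MACS. Peaks overlapping an IgG peak were removed. The deposited FE is a ratio, the acRIP minus IgG signal over input. The FDR is deposited as a percent and the caller's score as a score. The share of peaks at FDR 100% was compared, and the score enters no test. Cells that a spreadsheet had turned into dates were decoded. Lengths were end minus start. Exons came from GENCODE vM21 and bases from GRCm38.p6. Samples were compared by exact two-sided permutation tests (scipy 1.17.1), and 3 mice per genotype were the replicates. Regions were fitted with limma 3.58.1 (lmFit, eBayes with trend), log2(FE + 1), with Benjamini-Hochberg adjustment over all 497 regions, after a test on simulated data. Named regions were the 8 with the largest called fold changes without overlap and the 8 highest of 1 genotype in each direction, the 5 longest, the 5 mRNAs with most regions, up to 4 genes per list, the genes named by the study, those at the length limit and those with identical ends. Eno2, Zadh2, Rsf1, Kpna2, Grin2b and the regions named for a call that turned on 1 sample were chosen after their values were seen. Alternatives were other length limits, stricter peaks, other overlaps, offsets, scalings and leaving out each sample. A few items are not reported here.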

Additional observations from a re-analysis of the deposited data

How the results depend on the processing

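No counts accompany the peaks, so depth cannot be set against any value here, and 3 mice per genotype limit the permutation tests between genotypes to a p of 0.1. Of 174 values recomputed under an alternative, 137 kept their direction and side of the threshold or stayed within 1.5 times. A length limit of 150 bp gave 736 regions in WT alone, 568 in 5×FAD alone and 84 in both, with 30 and 18 called by limma as higher in WT and in 5×FAD. At 300 bp these were 145, 124, 16, 5 and 5. Without peaks of FDR 100%, 16 regions were called in both genotypes and limma called 1 and 2, on 191 regions in place of 497. With FE of at least 5 it called 11 higher in WT. Identical peak ends gave 20 regions in both, and a peak in all 3 samples gave 22 in both and 272 in WT alone. With regions present in either genotype, where one side is mostly set to FE 0, limma called 295 and 261. Differences of 5×FAD minus WT turned sign at 150 bp for the share of CDS peaks (-1.22 points), the share of listed peaks (-1.29 points) and the median length (5.83 bp). They did so at 300 bp for those shares (-0.107 and -0.185 points), the median FE (0.753) and the long minus short log2 FE (0.093), and without FDR 100% for the median length (4 bp). The long minus short log2 FE over all 6 samples passed the threshold at 150 bp (-0.21), at 300 bp (-0.995) and without FDR 100% (-0.16). The cause was not tested. Leaving out 1 sample at a time, the C share of long minus short peaks stayed between 2.23 and 2.40 points, where 5 samples cannot pass the threshold, and the median length difference ran from -4.67 to 1.33 bp. Regions numbered 303 to 431 in WT alone, 273 to 378 in 5×FAD alone and 33 to 38 in both, and limma called 14 to 21 and 6 to 10. Same-numbered samples did not deviate together (correlations -0.0086, -0.1460 and -0.0767 over 497 regions). The labels do not say whether the replicate numbers pair the mice, and these values cannot decide it. With the replicate number as a block, limma called 16 and 7. Of the 27 calls, Arhgap21, the second Map1a region, Prdm2 and Sepn1 were lost under the block, and every call kept its sign in each alternative that could fit it.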

Other observations

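Other regions were counted on the mRNAs with a called long region, but the same share over all mRNAs was not computed. The counts describe these mRNAs and do not set them apart. Of the 425 mRNAs with a called long region in WT, 171 (40.2%) had another region, of any kind and transcript position, in at least 2 WT samples, and of the 381 in 5×FAD, 129 (33.9%) did so.

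A further 265 long regions were called in neither genotype, most of them seen in a single sample. On Tenm4 a peak in exon 5 had FE of 325 in WT 1 and 3.38 in 5×FAD 2, and one in exon 30 had 319 in 5×FAD 2 alone. These values have no replicate.

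The gap between very high and very low FE recurred in regions with peaks in both genotypes. In 21 of the 58 the mean FE over samples with a peak was over 10 times higher in WT, with WT means of 57.4 to 1692 and 5×FAD means of 2.02 to 13.4, and in 4 it was over 10 times higher in 5×FAD. Without peaks of FDR 100%, 20 long CDS regions were left to fit, and limma called 1 higher in WT and 2 higher in 5×FAD. The cause of the gap was not tested.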
